A study of Mus musculus with 6 samples.

Results

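The genes described here are the 10 members of the BCL2 family that promote apoptosis: the 8 BH3-only genes Pmaip1, Bbc3, Bik, Bid, Bad, Bmf, Hrk and Bcl2l11, and the 2 effectors Bax and Bak1. They were picked by gene name from 49315 genes in a count table of oocyte RNA, and each name matched 1 row. The table compares germinal vesicle (GV) oocytes, fully grown eggs that have not resumed meiosis, of 3 Control mice with those of 3 mice in which Rpa1 was deleted in oocytes (Rpa1 OcKO). All mice were 4 to 5 weeks old and had been primed with PMSG, a gonadotropin that drives follicle growth, and each library pooled about 20 oocytes of 1 mouse without cumulus cells. The sources used here do not give the Cre line, the strain or the exact genotype of the Control mice. The series asks what RPA1, the large subunit of a protein complex that coats single-stranded DNA, does in DNA damage repair during oogenesis.

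Proteins of the BCL2 family control whether the outer mitochondrial membrane is permeabilised, the step that releases cytochrome c and starts the caspase cascade. Pro-survival members hold the effectors BAX and BAK in check, and BH3-only proteins act upstream, by binding the pro-survival members or by activating the effectors directly. In oocytes of the reserve the BH3-only proteins PUMA (gene Bbc3) and NOXA (gene Pmaip1) are known to act downstream of p53 family proteins, TAp63 above all, after DNA damage. Fully grown oocytes are a later stage than that reserve.

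The 6 libraries held 36280148 to 44575222 counts. Rpa1 stood at 140 to 156 CPM (counts-per-million, scaled by the TMM method) in Control and at 4.14 to 7.76 CPM in OcKO. All 12 oocyte markers were detected, and their summed level was 38414 to 61020 CPM in Control oocytes and 31707 to 41337 CPM in OcKO. Of these 12, 3 were lower in every OcKO library than in any Control library (Gdf9, Bmp15 and Ooep) and 0 were higher. The shares of all tested genes were 8.67% and 10.7%. The summed levels of 12 granulosa and cumulus markers overlapped (72.7 to 122 CPM in Control, 101 to 119 CPM in OcKO), and 9 of the 12 passed the filter on low counts. Foxl2 and Wt1 had 0 to 3 counts in any library, while Cyp19a1 had 336 to 1353, Inha 380 to 1615 and Nr5a2 434 to 1586. The summed levels of 7 theca and stroma markers (2.40 to 7.49 and 1.55 to 4.64 CPM), 7 blood and immune markers (4.47 to 13.6 and 1.19 to 7.63 CPM) and 4 endothelial markers (111 to 160 and 143 to 238 CPM) overlapped too. The summed level of 5 surface epithelium markers was 13.5 to 21.6 CPM in Control oocytes and 28.2 to 36.6 CPM in OcKO, with no overlap. Of these 5, Upk3b had 227, 489 and 681 counts in Control and 1303, 594 and 887 in OcKO. Krt8 had 261, 31 and 33 in Control and 139, 643 and 493 in OcKO, so both genes overlapped between the groups. Krt19 had 0, 0 and 16 in Control and 73, 15 and 17 in OcKO, and Krt18 had 0 to 4 in any library. Epcam had 0, 1 and 18 counts in Control and 28, 28 and 89 in OcKO. Of the 25 tested markers of cells other than oocytes, 4 were higher in every OcKO library than in any Control library (Cyp17a1, Col3a1, Tek and Epcam) and 1 was lower (Cd3e), against 10.7% and 8.67% of all tested genes. The part of these markers in the results below was not tested.

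The 10 genes did not move together. Pmaip1 rose from near absence to a level above that of most tested genes, and was the 1 member called by the test. Bik, the most abundant member in Control oocytes, had lower values in all 3 OcKO libraries, and Bbc3 had higher values in all 3 from almost no reads. Bax, Bcl2l11 and Bad overlapped between the groups. Bid, Bmf, Hrk and Bak1 had too few reads to be tested. Expression was compared with edgeR's quasi-likelihood test over 16060 genes with Benjamini-Hochberg adjustment, and a gene was called at an adjusted p under 0.05. Of the 6 members that passed the filter on low counts, 1 was called higher and 0 lower, where 0.137% of all tested genes were called higher and 0.00623% lower. At p under 0.05 before adjustment, 2 of the 6 were higher and 1 lower, against 5.93% and 5.21% of all tested genes. For 2 of the 6 every OcKO library was above every Control library, and for 1 every OcKO library was below, against 10.7% and 8.67% of all tested genes. A gene can pass the filter through its OcKO libraries alone, as Pmaip1 and Bbc3 did, so these shares of the 6 are a description. The median log2 fold change of the 6 was 0.38, and that of all tested genes was 0.01.

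**Figure D1:**
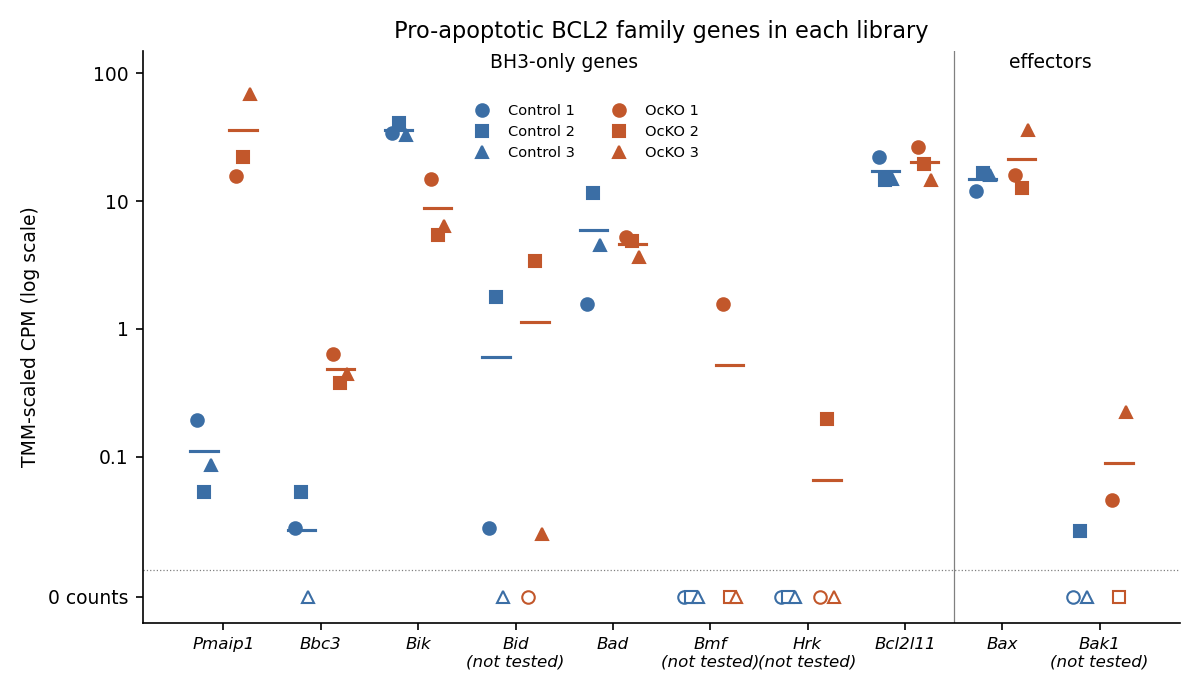
Level of each of the 10 genes in each library, as TMM-scaled CPM on a log axis. Points are libraries, horizontal bars are group means where they lie above the dotted line, and open symbols below that line are libraries with 0 counts. Pmaip1 and Bbc3 lie higher in every OcKO library than in any Control library, Bik lies lower, and the remaining genes overlap.

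Pmaip1 (ENSMUSG00000024521, chromosome 18, plus strand) encodes NOXA, a BH3-only protein that binds the pro-survival protein MCL1 and is a known p53 target. The Control libraries held 7, 2 and 3 reads of it, or 0.193, 0.0527 and 0.0864 CPM. The OcKO libraries held 691, 999 and 2813 reads, or 15.8, 22.0 and 69.2 CPM. Every OcKO library was far above every Control library, and OcKO replicate 3 was the highest of the group by a wide margin. The log2 fold change was 8.29 (SE 0.92, a 314-fold rise; edgeR adjusted p = 0.0383, n = 3 per group). Per length of exon, Pmaip1 was above 2.6% of tested genes in Control and above 75.3% of them in OcKO. The rise in size held in each fit without 1 library, but the call did not. The log2 fold change was 8.94, 7.99 and 8.19 without Control replicates 1, 2 and 3 (edgeR adjusted p = 0.118, 0.156 and 0.161). Without OcKO replicates 1, 2 and 3 it was 8.64, 8.59 and 7.37 (edgeR adjusted p = 0.102, 0.125 and 0.194). Over all tested genes, these reduced fits called 0 to 4 higher, where the fit of all 6 libraries called 22. DESeq2 called Pmaip1 higher (log2 fold change 8.36, adjusted p = 4.42e-23), as it did 2.99% of all tested genes, and limma voom did not (log2 fold change 8, adjusted p = 0.262). In pooled oocytes, a change in every oocyte and a larger change in a few of them cannot be told apart.

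Bbc3 (ENSMUSG00000002083, chromosome 7, 16308393 to 16318205, plus strand, GRCm38) encodes PUMA, a BH3-only protein that binds all the main pro-survival members. The Control libraries held 1, 2 and 0 reads, and the OcKO libraries held 28, 17 and 18. In CPM the OcKO libraries stood at 0.639, 0.374 and 0.443, against 0.0276, 0.0527 and 0 in Control. The groups did not overlap, and summed reads corrected for library size gave a ratio of 19.7 (exact 95% counting interval 6.46 to 98.3; 3 reads against 63). The interval covers counting error of the pooled reads only, and leaves out differences between mice. It also takes each read as a separate molecule, while the reads carry no molecular identifiers and can be copies of the same molecule. edgeR did not call the gene (log2 fold change 4.02, SE 1.11, unadjusted p = 0.00783, adjusted p = 0.211). The unadjusted p depended on the fit. It was 0.0782 by DESeq2 (SE 2.38, no adjusted p given), 0.0401 by limma voom, and 0.0523 by edgeR with a filter of 1 count. Leaving out each library in turn gave log2 fold changes of 3.51 to 4.87 (edgeR adjusted p of 0.326 to 0.482). Per length of exon Bbc3 stood above only 1.5% of tested genes in Control and above 6.8% in OcKO, so it remained a rare transcript in the group where it was higher. Set beside Pmaip1 on the same scale, the OcKO mean was 0.229 RPKM for Bbc3 and 13.5 RPKM for Pmaip1 (RPKM, TMM-scaled CPM divided by the exon length in kilobases).

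The sequences before the start sites of Bbc3 and Bax are shown because both are textbook p53 targets and, of these 2, Bbc3 had OcKO libraries that did not overlap Control and Bax did not. The windows are 250 bases long and end at the base before a RefSeq start site (GRCm38.p6), at chr7:16309333-16309582 on the plus strand for Bbc3 and chr7:45466899-45467148 on the minus strand for Bax. Capitals mark a match to the p53 response element, defined as a pair of adjacent consensus half-sites with both central cores kept and at most 3 mismatches in 20 bases, a pattern that reads the same on both strands.
Bbc3: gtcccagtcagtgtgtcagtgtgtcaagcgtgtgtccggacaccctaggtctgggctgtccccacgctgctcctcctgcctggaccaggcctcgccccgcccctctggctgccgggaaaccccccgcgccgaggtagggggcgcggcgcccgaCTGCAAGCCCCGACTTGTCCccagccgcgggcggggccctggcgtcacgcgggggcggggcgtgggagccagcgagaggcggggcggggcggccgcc
Bax: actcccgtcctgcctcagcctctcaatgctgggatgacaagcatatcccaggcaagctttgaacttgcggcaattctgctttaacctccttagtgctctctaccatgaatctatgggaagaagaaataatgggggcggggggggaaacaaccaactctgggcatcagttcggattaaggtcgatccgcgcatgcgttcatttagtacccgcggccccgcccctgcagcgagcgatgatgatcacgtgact
The table holds 3 Bbc3 windows, and the one shown is the one that held a match, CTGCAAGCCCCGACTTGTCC, at chromosome 7, 16309486 to 16309505, from 97 to 78 bases before the start site, with 3 mismatches. The Bax window held none under this definition, which says only that the pattern is not in these 250 bases. RefSeq windows were found for 8 of the 10 genes (all but Pmaip1 and Bik), 14 windows in all, and 1 of the 14 held a match. Of all 32851 windows of the same length, 156 held one (0.475%). The Bbc3 window shown was 76.4% G or C and the Bax window 54.0%. A match is a description of the sequence, and binding was not measured.

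Bik (ENSMUSG00000016758, chromosome 15, 83526862 to 83544635, plus strand, GRCm38) encodes a BH3-only protein of the endoplasmic reticulum membrane. It held 1245, 1538 and 1138 reads in the Control libraries and 649, 245 and 257 in the OcKO libraries. In CPM the Control libraries stood at 34.3, 40.6 and 32.8, and the OcKO libraries at 14.8, 5.39 and 6.33. All OcKO libraries were below all Control libraries, and OcKO replicate 1 was the closest to them. The log2 fold change was -2.02 (SE 0.46, a 4.06-fold lower level; unadjusted p = 0.00275), and edgeR did not call it over all genes (adjusted p = 0.134). DESeq2 called it lower (log2 fold change -2, adjusted p = 0.00203), as it did 1.71% of all tested genes. Leaving out each library in turn gave log2 fold changes of -2.62 to -1.73 (adjusted p of 0.212 to 0.367). Per length of exon Bik stood above 89.2% of tested genes in Control and above 68.9% in OcKO.

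Bcl2l11 (ENSMUSG00000027381, chromosome 2, 128126038 to 128162547, plus strand, GRCm38) encodes BIM, a BH3-only protein known to respond to loss of growth factors. It stood at 22.3, 14.6 and 14.9 CPM in the Control libraries and at 26.3, 19.3 and 14.5 CPM in the OcKO libraries, so the groups overlapped. The log2 fold change was 0.22 (SE 0.38, adjusted p = 0.906 by edgeR), and it was -0.03 without OcKO replicate 1, the library with the highest value.

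Bad (ENSMUSG00000024959, chromosome 19, 6941861 to 6951898, plus strand, GRCm38) encodes a BH3-only protein that growth factor signalling inactivates by phosphorylation. Its Control libraries spread widely, at 1.57, 11.6 and 4.52 CPM, and its OcKO libraries lay inside that spread at 5.21, 4.91 and 3.62 CPM. The log2 fold change was -0.37 (SE 0.82, adjusted p = 0.927 by edgeR) and took the other sign without Control replicate 2, the highest library (0.61). Exons of Bad share 517 bases, 25.8% of its exon length, with Gpr137 on the opposite strand. The library kit does not mark strand, so reads of that stretch cannot be assigned to one gene.

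The remaining BH3-only genes were detected in isolated libraries. Bid, whose product links death receptors to mitochondria once caspase 8 has cut it, held 1, 67 and 0 reads in the Control libraries and 0, 154 and 1 in the OcKO libraries. Nearly all of its reads thus lay in replicate 2 of each group. The numbers name different mice and do not pair them. Bid shares 628 exonic bases, 17.7% of its exon length, with Bcl2l13 on the opposite strand. Bcl2l13 itself stood at 145, 94.3 and 125 CPM in the Control libraries and at 133, 120 and 89.3 CPM in the OcKO libraries. Whether its reads entered the Bid counts was not tested. Bmf, which encodes a BH3-only protein tied to the cytoskeleton, held 69 reads in OcKO replicate 1 and 0 in the other 5 libraries. Hrk, a BH3-only gene best known from neurons, held 9 reads in OcKO replicate 2 and 0 in the other 5. For both, the 0 reads of the Control group allow a mean level of up to 0.0275 CPM (3 reads over the group). This limit covers counting error only, and the single libraries that held all reads of these genes show a spread that it does not cover. A difference between the groups was not detectable for these 3 genes at this depth and spread. With a filter of 1 count, which let them be tested, edgeR gave adjusted p values of 0.907 for Bid, 0.491 for Bmf and 0.535 for Hrk.

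Bax (ENSMUSG00000003873, chromosome 7, 45461697 to 45466898, minus strand, GRCm38) and Bak1 encode the effectors, which form pores in the outer mitochondrial membrane and can often stand in for each other. Bax stood at 11.9, 16.7 and 16.0 CPM in the Control libraries. In the OcKO libraries it stood at 15.8, 12.7 and 35.9 CPM. OcKO replicates 1 and 2 lay within the Control values and OcKO replicate 3 lay above all other libraries. The log2 fold change was 0.53 (SE 0.47, adjusted p = 0.771 by edgeR). Without OcKO replicate 3 it was -0.06, so 1 library carried the difference. That library was also the one with the most Pmaip1.

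Bak1 (ENSMUSG00000057789, chromosome 17, 27019810 to 27029009, minus strand, GRCm38) was close to absent in both groups. It held 0, 1 and 0 reads in the Control libraries and 2, 0 and 9 in the OcKO libraries. The ratio of summed counts was 10.3, with an exact 95% counting interval of 1.503 to 445 that covers counting error only, and 9 of its 11 OcKO reads came from OcKO replicate 3. With the filter of 1 count edgeR did not call it (log2 fold change 2.91, SE 2.21, adjusted p = 0.619). Exons of Bak1 share 357 bases, 14.8% of its exon length, with Ggnbp1 on the opposite strand. Bax therefore made up at least 99.6% of the summed effector level per length in every library. Bok, a further pore-forming relative that is no member and was named after its values were seen, was also rare, at 1.48 ± 1.07 CPM in Control oocytes and 1.89 ± 1.41 CPM in OcKO oocytes (SD, n = 3; adjusted p = 0.948 by edgeR).

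**Figure D2:**
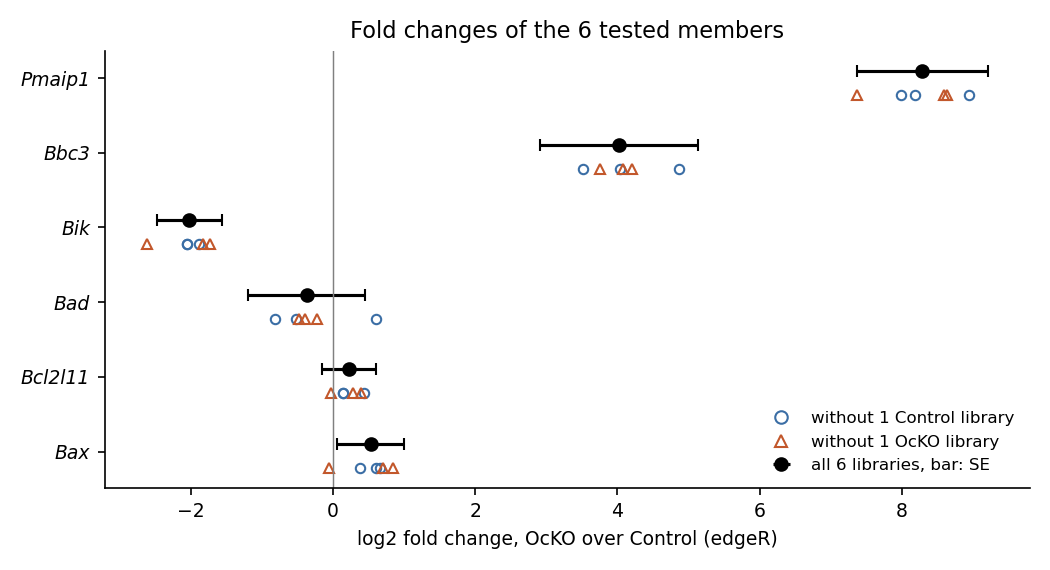
Log2 fold change of the 6 tested genes, OcKO over Control, by edgeR. Black points are fits of all 6 libraries with SE bars, and open symbols are fits without 1 Control library (circles) or without 1 OcKO library (triangles). Pmaip1, Bbc3 and Bik keep their sign in all 6 reduced fits, while Bad, Bcl2l11 and Bax each cross zero in 1.

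The order of the genes per length of exon differed between the groups. In Control, Bik led at 38.1 ± 4.36 RPKM, then Bax at 9.44 ± 1.65 RPKM, and the ranges of these 2 were apart from each other and from the next gene. Bad (2.94 ± 2.58 RPKM) and Bcl2l11 (2.15 ± 0.541 RPKM) followed with overlapping ranges, and all other members were below 0.5 RPKM in every library (SD, n = 3). In OcKO, Bax (13.6 ± 7.98 RPKM), Pmaip1 (13.5 ± 11.1 RPKM) and Bik (9.38 ± 5.51 RPKM) led, and neighbours in that order overlapped. Bcl2l11 (2.497 ± 0.742 RPKM) and Bad (2.28 ± 0.420 RPKM) came next, apart from the leading 3 and overlapping each other. The lengths are those of all annotated exons joined, 943 bases for Bik and 8029 for Bcl2l11, and which exons were covered was not measured.

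The BH3-only RNA of Control oocytes was thus mostly Bik, and that of OcKO oocytes was a mixture. Bik made up 90.9%, 84.1% and 89.3% of the summed RPKM of the 8 BH3-only genes in the Control libraries. In the OcKO libraries it made up 55.8%, 28.5% and 18.3%. Pmaip1 made up 0.182%, 0.0390% and 0.0839% in Control, and 21.2%, 41.4% and 71.3% in OcKO. The groups did not overlap for either gene. Within OcKO the libraries differed: per length, Bik was the largest share in replicate 1, and Pmaip1 was the largest in replicates 2 and 3. Bcl2l11 made up 5.08 ± 1.71% in Control and 9.53 ± 4.00% in OcKO, and Bbc3 0.0270 ± 0.0247% and 0.839 ± 0.253% (SD, n = 3). Shares are parts of a sum, so the share of a gene also changes when other members change. The level of Bcl2l11 itself overlapped between the groups (2.15 ± 0.541 RPKM in Control, 2.497 ± 0.742 RPKM in OcKO). The shares carry no test, since the members were chosen with results known. With counts not divided by length, the Bik share was 60.2% in Control and 13.2% in OcKO, and the Bcl2l11 share 29.3% and 30.4%. On that scale Bcl2l11 was the largest share in OcKO replicate 1 (40.9%, against 24.5% for Pmaip1 and 23.0% for Bik), and Pmaip1 was again the largest in replicates 2 and 3 (39.5% and 73.6%).

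The direction of the summed level of the 8 genes depended on the scale. Per length it was 40.1, 51.2 and 38.9 RPKM in the Control libraries and 28.2, 20.0 and 36.7 RPKM in the OcKO libraries, with all OcKO libraries below all Control libraries. With scaling by library size alone, an alternative added after the data were seen, the groups overlapped (36.9 to 46.9 RPKM in Control, 20.4 to 41.1 RPKM in OcKO). Without division by length, a further alternative added after the data were seen, the sum was 58.4, 68.6 and 52.3 CPM in Control and 64.4, 55.6 and 94.1 CPM in OcKO, so the groups overlapped and the OcKO mean was the higher one (71.3 against 59.8 CPM).

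**Figure D3:**
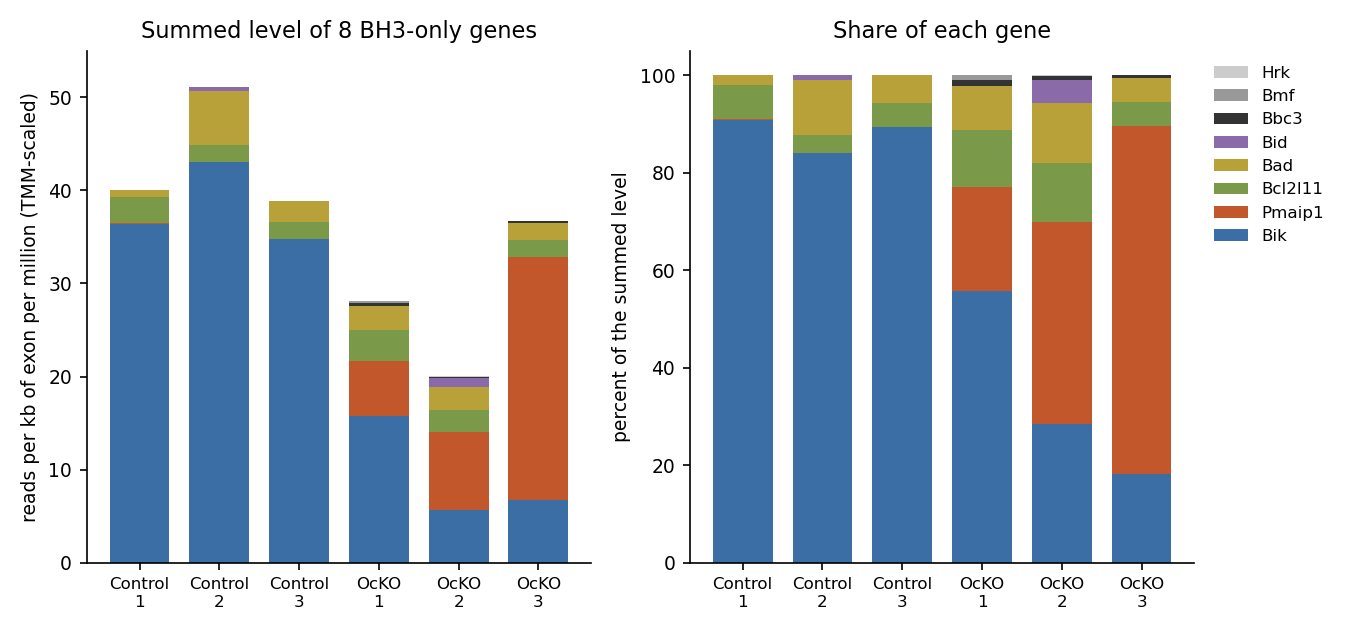
Stacked levels of the 8 BH3-only genes in each library, as RPKM (left) and as a percent of their sum (right). Bik fills 84.1% to 90.9% of each Control bar and 18.3% to 55.8% of each OcKO bar, and Pmaip1 fills 21.2% to 71.3% of the OcKO bars.

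In summed RNA level, the genes listed as pro-survival outweighed these genes in both groups. The excess rested mainly on Bcl2l10, so it depends on counting that gene as pro-survival, which was not tested. Of 8 pro-survival genes, 4 could be tested, and edgeR called 0 of them, with 0 at p under 0.05 before adjustment, and 0 were called by DESeq2 or limma voom. Bcl2l10, in that list and known for high expression in oocytes, stood at 1439 ± 135 RPKM in Control oocytes and 1385 ± 198 RPKM in OcKO (SD over 3 libraries). Its log2 fold change was -0.06 (SE 0.17, adjusted p = 0.951 by edgeR). Bcl2l1, which encodes BCL-XL, stood at 48.2 ± 3.95 and 47.6 ± 11.2 RPKM. Both were named after their values were seen. The summed RPKM of the pro-survival genes was 1489 ± 135 in Control and 1435 ± 206 in OcKO, against 52.8 ± 7.78 and 42.0 ± 16.1 for the 10 pro-apoptotic genes. Bcl2l10 made up nearly all of the pro-survival sum, and Bcl2l1, the next gene, was near the sum of the 10 genes. Protein was not measured. The pair with the smallest p were Mcl1, whose product is the main partner of NOXA, at 5.65, 0.580 and 0.807 CPM in Control oocytes and 4.18, 6.71 and 11.99 CPM in OcKO, and Bcl2, at 0.267 ± 0.106 and 0.677 ± 0.460 CPM. Neither was called (edgeR adjusted p = 0.635 and 0.675). Counts of the 3 near-identical Bcl2a1 genes are uncertain, since reads can match more than 1 copy, and all 3 were under the filter.

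Among 7 other relatives of BCL2, 6 were tested, edgeR called 0, 0 had p under 0.05 before adjustment, and DESeq2 and limma voom called 0. The smallest p values belonged to Bcl2l12 (7.26 ± 3.19 CPM in Control, 3.91 ± 1.34 CPM in OcKO) and to Bnip3l, which encodes a mitophagy receptor (268 ± 18.7 and 285 ± 30.4 CPM; SD, n = 3).

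Among genes of mitochondrial permeabilisation and the caspase machinery, 15 were tested. edgeR called 0, with 2 higher and 0 lower at p under 0.05 before adjustment (5.93% and 5.21% of all tested genes), and DESeq2 and limma voom also called 0. Of the 15, 10 had positive log2 fold changes, as had 50.8% of all tested genes (median 0.59, and 0.75 with library size alone). Diablo, whose product blocks inhibitors of caspases, stood at 33.9 ± 10.4 and 62.8 ± 9.26 CPM (SD, n = 3; log2 fold change 0.89, SE 0.30, adjusted p = 0.313 by edgeR). Casp9, the initiator caspase of this pathway, stood at 1.21, 8.28 and 6.77 CPM in Control oocytes and 24.0, 19.6 and 15.5 CPM in OcKO (adjusted p = 0.369 by edgeR). For 3 of the 15 all OcKO libraries lay above all Control libraries, against 10.7% of all tested genes: Diablo, Casp9 and Xiap. Xiap, which encodes an inhibitor of caspases and was named after its values were seen, stood at 2.56, 0.738 and 1.12 CPM in Control oocytes and 5.18, 3.12 and 3.52 CPM in OcKO (adjusted p = 0.619 by edgeR). Apaf1, the scaffold on which caspase 9 is activated, overlapped at 13.3 ± 4.501 and 22.2 ± 14.0 CPM (SD, n = 3) and was named after its values were seen.

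Upstream, 16 genes that can control BH3-only genes were tested and 1 was called higher, Mdm2, which encodes the ubiquitin ligase of p53 and is itself a p53 target. It stood at 182, 174 and 224 CPM in Control oocytes and at 750, 875 and 524 CPM in OcKO oocytes (log2 fold change 1.89, SE 0.23, adjusted p = 0.0450 by edgeR). Without Control replicates 1, 2 or 3 the adjusted p was 0.221, 0.185 and 0.158 by edgeR, and without OcKO replicates 1, 2 or 3 it was 0.244, 0.142 and 0.0959, so no reduced fit called Mdm2 (log2 fold changes of 1.76 to 2.07). Of the 16, 3 were higher and 0 lower at p under 0.05 before adjustment, against 5.93% and 5.21% of all tested genes. By DESeq2 2 were higher, against 2.99%, and by limma voom 0 were called. The second of those called by DESeq2 was Trp73, which encodes the p53 relative p73, at 35.5, 83.5 and 21.6 CPM in Control oocytes and 286, 211 and 341 CPM in OcKO oocytes (log2 fold change 2.57, SE 0.50, adjusted p = 0.120 by edgeR). Trp73 was named after its values were seen, as were the next genes. The transcripts of p53 and p63 overlapped between the groups: Trp53 stood at 27.7 ± 18.8 and 42.6 ± 15.1 CPM, and Trp63 at 44.2 ± 27.9 and 50.7 ± 19.8 CPM (SD, n = 3). Chek2, whose kinase activates both proteins, stood at 2.69 ± 1.43 and 2.10 ± 1.98 CPM. RNA levels do not show the activity of these proteins, which is set largely after translation.

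A further list held 10 genes whose products act in the turnover, phosphorylation or binding of BH3-only proteins or of MCL1. Of these, 8 had negative log2 fold changes and 2 positive ones, where 50.8% of all tested genes were positive (median -0.28, and -0.10 with library size alone). edgeR called 0, with 0 higher and 4 lower at p under 0.05 before adjustment, against 5.93% and 5.21% of all tested genes. By DESeq2 1 was lower, against 1.71%, and by limma voom 0 were called. Usp9x, a deubiquitinase that stabilises MCL1, stood at 810, 769 and 897 CPM in Control oocytes and at 520, 556 and 341 CPM in OcKO oocytes (log2 fold change -0.80, SE 0.22, adjusted p = 0.2005 by edgeR). Ywhab, a 14-3-3 gene of the family that holds phosphorylated BAD in the cytosol, stood at 155 ± 39.7 and 91.4 ± 4.45 CPM (SD, n = 3; adjusted p = 0.238 by edgeR).

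**Figure D4:**
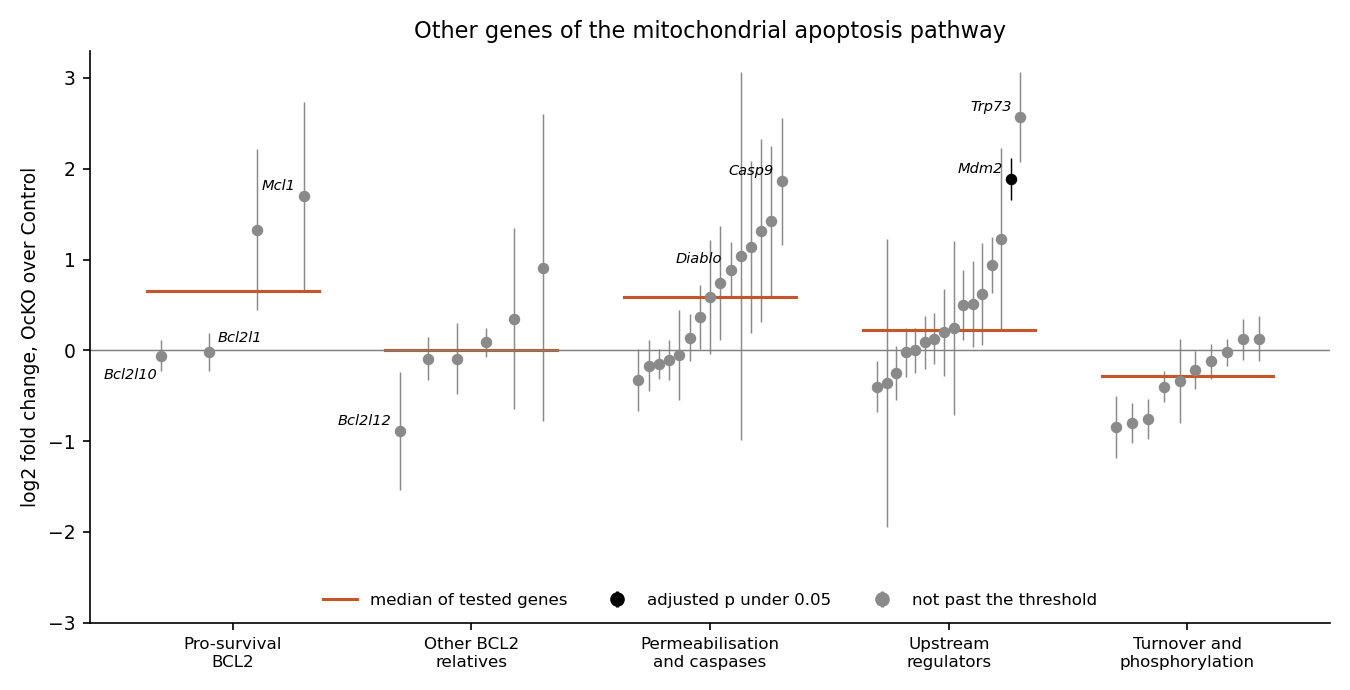
Log2 fold change by edgeR, OcKO over Control, of tested genes in 5 lists of the mitochondrial apoptosis pathway. Points are genes with SE bars, black where the adjusted p is under 0.05, and horizontal bars are list medians. Mdm2 is the 1 gene called. Bcl2l10 and Bcl2l1 lie near 0.

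The genes whose profile over the 6 libraries was closest to that of Pmaip1 were Ddit4l, Hapln3 and Calhm2, out of 11720 named genes at a mean of at least 1 CPM. Likeness was the root mean square difference of log2(CPM + 0.5) profiles centred on their means, and was 0.188, 0.322 and 0.356 for the 3 genes. Ddit4l stood at 0.110, 0 and 0 CPM in Control oocytes and at 9.50, 16.5 and 53.6 CPM in OcKO. Its libraries stood in the same order as those of Pmaip1 within OcKO (log2 fold change 9.38, adjusted p = 0.0822 by edgeR). The genes closest to Bik were Cpb1, a carboxypeptidase gene, Asb13 and Sema4b, a semaphorin gene, with differences of 0.256, 0.264 and 0.337. Cpb1 stood at 25.9, 26.7 and 19.3 CPM in Control oocytes and at 10.6, 5.50 and 3.74 CPM in OcKO oocytes (log2 fold change -1.85, adjusted p = 0.193 by edgeR). These genes were selected for their likeness, and all values come from the same 6 libraries.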

How the data were processed

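RNA of GV oocytes of 3 Control and 3 OcKO mice was sequenced, 1 library per mouse. The authors deposited raw counts of reads per gene. The submitters' processing notes name Trimmomatic 0.36, STAR 2.5.2b, featureCounts, Subread 1.5.2 and the build GRCm38. The sources used here do not give the annotation release or the treatment of shared reads. The series table and the sample files differed in 0 values.

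Counts were tested with edgeR 4.0.16 in R 4.3.3 (TMM, filterByExpr, quasi-likelihood, all 6 libraries, no covariates), with DESeq2 1.42.0 and limma 3.58.1 as alternatives. SE is the size of the log2 fold change divided by the root of the F statistic. RPKM used the exon length in the sample files. No pair of libraries was a duplicate (lowest chi-square per degree of freedom 127.4). On simulated counts of 15204 genes with 100 changed genes per size, edgeR called 56% of those changed 4-fold and 85% of those changed 16-fold. The changed genes were drawn from those with a mean above 5 CPM, so these rates do not cover rarer genes such as Bbc3. The simulation took the dispersions estimated from these data as true, and the number of changed genes was set. Its rates depend on these settings and need not hold for the real comparison.

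All 10 members are named. In each list the called genes, or else the 2 with the smallest p, are named, and other names are marked. 2 genes of the lists are not reported here. For Pmaip1 and Bik the 3 most alike genes are named. Members and lists were chosen with earlier results of these data known.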

Additional observations from a re-analysis of the deposited data

How the results depend on the processing

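Leaving out each library in turn, edgeR called 0 of the 10 genes in every fit, 0 to 4 of all genes higher, 0 to 2 lower, and 0 other pathway genes. At a mean of at least 5 CPM it called 64 genes higher and 8 lower, and 2 other pathway genes higher. DESeq2 called 480 higher and 275 lower, 1 of the 10 genes higher and 1 lower, and 2 other pathway genes higher and 1 lower. limma voom called 0 of the 10, 0 genes higher and 0 other pathway genes. The replicate numbers name different mice: same-numbered libraries had correlations of deviations of -0.046, -0.03 and -0.072, and 0 of 6 libraries correlated best with their own number. With a replicate block edgeR called 0 of the 10, 0 genes higher, 0 lower and 0 other pathway genes (Pmaip1 log2 fold change 8.08, adjusted p = 0.276). Among the 6 tested members the sign turned, over all alternatives, only for Bad (0.04 with limma voom, 0.02 with the replicate block, -0.82 to 0.61 over the fits without 1 library, the latter without Control replicate 2), Bcl2l11 (-0.03 to 0.44, the former without OcKO replicate 1) and Bax (-0.06 to 0.84, the former without OcKO replicate 3). Without length, the shares in Control were 0.191% for Pmaip1, 60.2% for Bik and 29.3% for Bcl2l11, and in OcKO 13.2% for Bik and 30.4% for Bcl2l11. The log2 ratio of the summed BH3-only level, OcKO over Control, was -0.62 per length, 0.26 without length, and -0.85 to -0.42 without each library in turn. With library size alone the median over all genes moved up by 0.17 (log2). One count was worth 0.0220 to 0.0288 CPM, which limits Bid, Bmf, Hrk, Bak1 and the Control values of Bbc3 and Pmaip1.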

Other observations

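The 3 OcKO libraries differed among themselves in these genes. Among them, replicate 1 had the most Bik (14.8 CPM) and the least Pmaip1 (15.8 CPM), and was the only library of the 6 with reads of Bmf. Replicate 3 had the most Pmaip1 (69.2 CPM), the most Bax (35.9 CPM) and 9 of the 11 OcKO reads of Bak1. Residual Rpa1 in OcKO replicates 1 to 3 was 7.76, 4.14 and 6.84 CPM, an order that differs from that of Pmaip1. The order of 3 libraries was not tested.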
